A study of Mus musculus with 36 samples.

Results

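mmu-miR-126a-3p and mmu-miR-126a-5p, the mature products of the 2 arms of the Mir126a hairpin, and mmu-miR-210-3p, from the Mir210 hairpin, were followed across all groups of the series as readouts of blood vessels and of low oxygen. These 3 miRNAs were chosen by name and are 3 of the 1963 miRNAs listed in the tables. Each of them had reads in all 36 libraries and passed the filter on low values (a mean of at least 1 RPM, that is, reads scaled to a library total of 1000000), as did 514 miRNAs in all. The prefix mmu, for mouse, is left out from here on. The libraries are small RNA sequencing of ventral and lateral prostate lobes from male C56NL/6N mice. Mice were ELAC2+/+ (WT), ELAC2-/- (KO) or ELAC2A537T (A537T), where ELAC2 is the ribonuclease that trims the 3′ end of precursor transfer RNAs. In KO mice an Elac2 exon was removed by Cre recombinase under the probasin promoter (Pb-Cre), which acts in prostate epithelium, whereas A537T mice were homozygous for the point mutation in the whole body. Each line was studied without the TRAMP transgene and with it in the heterozygous state (TRAMP +/-; WT-TRAMP, KO-TRAMP and A537T-TRAMP). TRAMP uses the same promoter to express SV40 T antigens in prostate epithelium, and the mice develop prostate tumours. Mice were 10 or 30 weeks old, which gave 12 groups of 3 libraries.

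miR-126 is carried in an intron of Egfl7, a gene of endothelial cells, and is the best known miRNA of the endothelium, where it restrains inhibitors of vascular growth factor signalling. Platelets and blood-forming stem cells carry it too. miR-210 is the best known miRNA of the hypoxia response. It is induced by the hypoxia-inducible factors and lowers the expression of mitochondrial iron-sulphur cluster assembly proteins. The probasin promoter is not known to act in endothelial cells.

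The mature sequences are shown because the seed (bases 2 to 8, in capitals) sets which messengers a miRNA pairs with, and because Mir126a lies opposite another miRNA gene. Of the 3 miRNAs followed, 2 have a mature sequence in the RefSeq table used here (GRCm38.p6). The products of Mir126b and the other arm of Mir210 are printed for comparison.
miR-126a-3p: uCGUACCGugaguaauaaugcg
miR-210-3p: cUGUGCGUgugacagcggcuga
miR-126b-5p: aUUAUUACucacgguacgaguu
miR-126b-3p: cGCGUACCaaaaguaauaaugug
miR-210-5p: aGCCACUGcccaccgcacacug
No seed is shared among these 5 sequences, and each seed occurs in only 1 mature miRNA of the 1679 in that table. The Mir126a hairpin spans chr2:26591357-26591429 on the + strand (GRCm38) and its 3p product spans chr2:26591402-26591423. In the GENCODE annotation the hairpin lies inside Egfl7 (chr2:26580014-26593120, + strand), in an intron of the coding transcripts and inside an exon of a retained-intron transcript. It also lies inside Gm20532, a longer gene on the same strand. Mir126b occupies chr2:26591363-26591420 on the opposite strand, so that miR-126a-3p and the reverse complement of miR-126b-5p share a run of 19 bases. The Mir210 hairpin spans chr7:141221384-141221493 on the - strand, with miR-210-3p at chr7:141221407-141221428. It overlaps no other annotated gene, and the nearest genes are Rassf7 at 2726 bases and Phrf1 at 7291 bases.

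Depth allowed all 3 miRNAs to be measured well. Library totals ran from 4544257 to 21870210 reads, apart from library 35 (A537T, 10 weeks) with 655455 reads. The 95% Wilson interval of a level reached at most 1.25% to either side for miR-126a-3p, 6.67% for miR-126a-5p and 7.00% for miR-210-3p. In library 35 it reached 2.0%, 11.8% and 14.5%. These intervals cover counting error only, because amplified reads that carry no molecular identifier can be copies of one molecule. The 7 epithelial miRNAs fixed as markers were all measured and took 3.91 to 10.1% of the reads. The miRNAs listed for skeletal muscle, whose source was not tested, took 9.74 to 30.7% of the reads in WT libraries at 10 weeks without TRAMP. In the same setting they took 3.72 to 13.7% in A537T libraries and 0.736 to 6.51% in KO libraries. In every other library they took at most 3.10%. The libraries of TRAMP mice at 10 weeks were shallower (4544257 to 13014486 reads) than most others.

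miR-126a-3p was the most abundant of the 3 miRNAs as sequenced. It ranked 21 of 1963 by mean level, with 4818 to 18003 RPM. miR-126a-5p ranked 105, with 114 to 600.0 RPM, and miR-210-3p ranked 115, with 123 to 410.4 RPM. Adapter ligation favours some small RNAs over others, so these levels do not give the amounts of different miRNAs relative to each other. miR-126b was almost unread, with 20 reads of miR-126b-3p and 14 of miR-126b-5p over all libraries against 4972620 of miR-126a-3p. miR-210-5p had 3.19 to 11.003 RPM.

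**Figure D1:**
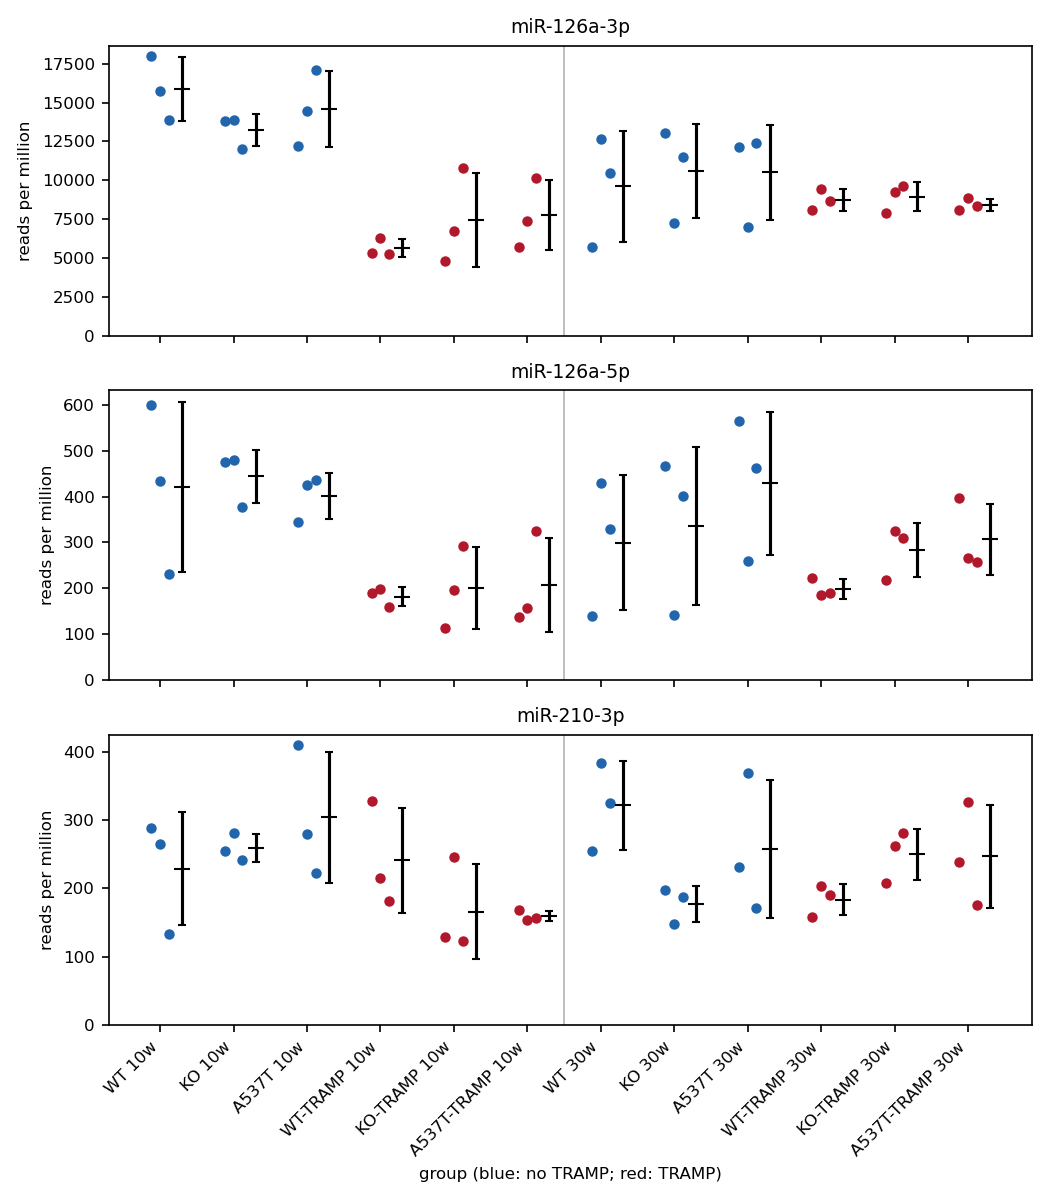
Level of each miRNA in RPM (linear axis from 0) in every library of the 12 groups, with points for libraries and, beside them, the group mean ± SD (n = 3); blue marks no TRAMP and red marks TRAMP. At 10 weeks the miR-126a-3p points of TRAMP mice, 4818 to 10771, all sit below those of mice without TRAMP, 12044 to 18003.

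The clearest difference was between 10-week-old mice with and without TRAMP, in whom both products of Mir126a were lower with the transgene. In WT mice miR-126a-3p stood at 18003, 15784 and 13883 RPM, and in WT-TRAMP mice at 5339, 6278 and 5268. In KO mice it stood at 13803, 13890 and 12044, and in KO-TRAMP mice at 4818, 6714 and 10771. In A537T mice it stood at 12234, 14483 and 17112, and in A537T-TRAMP mice at 5685, 7392 and 10174. All 9 libraries with TRAMP were therefore below all 9 without it. How many of all miRNAs separated without overlap was not counted, here or for the ranges compared below.

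The fall of miR-126a-3p passed the test in each line. The log2 fold change was -1.49 ± 0.28 (SE) in WT (limma adjusted p = 1.0e-04), -0.91 ± 0.28 in KO (limma adjusted p = 0.012) and -0.94 ± 0.28 in A537T (limma adjusted p = 0.011). Averaged over the lines it was -1.12 ± 0.16 (limma adjusted p = 1.34e-06), or 2.17-fold lower. Changes were common in these contrasts. Of all 514 miRNAs tested, 34% passed in either direction in WT, 42.8% in KO, 35% in A537T and 65.4% in the average over lines, where 39.9% passed as lower. The median miRNA changed by -0.28 in that average, so that miR-126a-3p fell by 0.83 more than the median on the log2 scale. Within the lines the median miRNA changed by -0.05 in WT, -0.40 in KO and -0.22 in A537T. Relative to it miR-126a-3p stood at -1.44, -0.51 and -0.72. The average passed without any single library, with fold changes from -1.22 to -1.02. In KO the call was lost without library 7 (-0.64, limma adjusted p = 0.119), in edgeR (-0.63, adjusted p = 0.058) and in DESeq2 (-0.47, adjusted p = 0.140), and in A537T without library 4 (-0.74, limma adjusted p = 0.074) or library 36 (-0.82, limma adjusted p = 0.055). Without the shallow library 35 the A537T value was -0.94 (limma adjusted p = 0.028).

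miR-126a-5p, the less abundant product of the same hairpin, moved with miR-126a-3p at 10 weeks. It stood at 600.0, 434.6 and 230.1 RPM in WT and at 189.9, 198.1 and 158.3 in WT-TRAMP mice. The KO values were 475.2, 479.0 and 377.3 against 114.0, 195.7 and 291.8 in KO-TRAMP mice, and the A537T values 344.6, 425.7 and 435.7 against 138.4, 157.1 and 324.1 in A537T-TRAMP mice. Within each line the groups did not overlap, but across the lines the lowest WT library was below 2 of the 9 TRAMP libraries.

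The log2 fold change of miR-126a-5p was -1.11 ± 0.43 (SE) in WT (limma adjusted p = 0.046) and -1.24 ± 0.43 in KO (limma adjusted p = 0.024), and averaged over the lines it was -1.13 ± 0.25 (limma adjusted p = 3.02e-04). In A537T it was -1.06 and did not pass (limma adjusted p = 0.055). The WT call rested on single libraries. It was lost without any of libraries 1, 2, 3, 28 and 29, with fold changes from -1.17 to -0.80 and limma adjusted p from 0.076 to 0.223, and with no filter (limma adjusted p = 0.102) or only the libraries of the contrast (limma adjusted p = 0.064). The KO call was lost without library 7 (-0.88), 31 (-1.18) or 32 (-1.18), with limma adjusted p from 0.064 to 0.178, with no filter (limma adjusted p = 0.064), in edgeR (-0.95, adjusted p = 0.051) and in DESeq2 (-0.80, adjusted p = 0.071). The average passed without any single library, from -1.26 to -1.02. Relative to the median miRNA, miR-126a-5p was lower by 0.85 on the log2 scale, which is close to the value for miR-126a-3p.

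**Figure D2:**
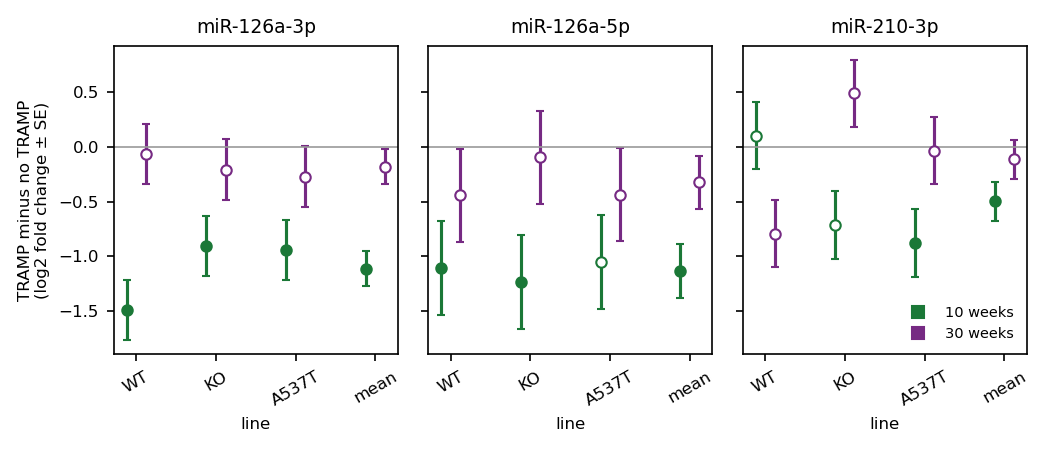
Difference between mice with and without TRAMP (log2 fold change ± SE of the limma fit, y axis) in each line and averaged over the lines (x axis), at 10 weeks in green and at 30 weeks in purple; filled points passed an adjusted p of 0.05. The filled points of both miR-126a products lie between -1.49 and -0.91 at 10 weeks, and at 30 weeks no point is filled.

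At 30 weeks no difference in the miR-126a products between mice with and without TRAMP passed the limma test. miR-126a-3p stood at 5711, 12661 and 10446 RPM in WT and at 8070, 9461 and 8647 in WT-TRAMP mice. It stood at 13076, 7222 and 11510 in KO and at 7887, 9263 and 9659 in KO-TRAMP mice. In A537T it stood at 12135, 6972 and 12407, and in A537T-TRAMP mice at 8068, 8866 and 8329. Without TRAMP each line had a low library (19, 23 and 26) and 2 that were higher than every TRAMP library, while the 9 TRAMP libraries lay close together at 8694 ± 656 (SD, n = 9).

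The average TRAMP difference at 30 weeks was -0.18 ± 0.16 for miR-126a-3p (limma adjusted p = 0.368) and -0.33 ± 0.25 for miR-126a-5p (limma adjusted p = 0.294). miR-126a-5p ranged from 184.5 to 396.5 RPM with TRAMP and from 139.2 to 564.3 without it. The share of all miRNAs that passed at 30 weeks was 30.2% in WT, 35.8% in KO, 10.9% in A537T and 45.1% in the average. DESeq2 called both averages, at -0.35 for miR-126a-3p (adjusted p = 0.045) and -0.53 for miR-126a-5p (adjusted p = 0.027), and the edgeR quasi-likelihood test called that of miR-126a-5p (-0.53, adjusted p = 0.048).

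The TRAMP difference in miR-126a-3p changed with age. It was 1.43 ± 0.39 less negative on the log2 scale at 30 than at 10 weeks in WT (limma adjusted p = 0.020) and 0.93 ± 0.23 less negative in the average over lines (limma adjusted p = 0.003). The WT call was lost without library 19 (1.09, limma adjusted p = 0.058), the low WT library at 30 weeks. In KO and A537T the change was 0.70 ± 0.39 and 0.67 ± 0.39 and did not pass. For miR-126a-5p the average change was 0.81 ± 0.35 (limma adjusted p = 0.070). Among all miRNAs, 9.34% passed this test in WT, 31.9% in KO, 2.72% in A537T and 37.2% in the average. Their median change in it was -0.14 in WT, 0.62 in KO, 0.25 in A537T and 0.29 in the average.

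Without TRAMP, miR-126a-3p was lower at 30 than at 10 weeks in the average over lines. It went from 14582 ± 2034 to 10238 ± 2832 RPM (SD, n = 9), a log2 fold change of -0.56 ± 0.16 averaged over lines (limma adjusted p = 0.008). Here 33.5% of all miRNAs passed and 20.6% passed as lower. Markers of other cell types moved in the same contrast. All 7 skeletal muscle miRNAs tested fell (median -3.47), 2 of the 4 red cell and platelet miRNAs fell (median -0.62) and 5 of the 7 epithelial miRNAs rose (median 0.57), against 12.8% of all miRNAs that rose and a median of -0.07. Their part in the result was not tested. With TRAMP it went from 6938 ± 2158 to 8694 ± 656, a difference of 0.38 ± 0.16 that did not pass (limma adjusted p = 0.076, with 27.4% of all miRNAs passing). The call without TRAMP was lost under DESeq2 (-0.35, adjusted p = 0.053). None of the 18 tests of age within a single group pair passed for the 3 miRNAs, while 3 had an unadjusted p under 0.05; 9.53% of all miRNAs passed in WT, 14.8% in KO, 15.2% in A537T, 7.59% in WT-TRAMP, 22.2% in KO-TRAMP and 5.45% in A537T-TRAMP. For miR-126a-3p in WT the age difference of -0.79 (limma adjusted p = 0.071) passed under TMM scaling (-0.99), with a total that left out skeletal muscle miRNAs (-1.12), in edgeR (-0.96) and in DESeq2 (-0.85). In KO its age difference was -0.36 and in A537T -0.51. The median of all miRNAs was 0.14 in WT, -0.29 in KO and -0.06 in A537T.

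Ordered by mean level, the 3 groups without TRAMP at 10 weeks led for miR-126a-3p, from WT (15890 ± 2062 RPM, SD, n = 3) through A537T (14610 ± 2441) to KO (13246 ± 1042). The 3 groups without TRAMP at 30 weeks came next (9606 to 10603), then the 3 TRAMP groups at 30 weeks (8421 to 8936), and last A537T-TRAMP (7750 ± 2266), KO-TRAMP (7434 ± 3041) and WT-TRAMP (5629 ± 564) at 10 weeks. The highest group mean was 2.82 times the lowest. Each of the 11 pairs of neighbours in this order had overlapping ranges, as did each pair of neighbours for miR-126a-5p and for miR-210-3p.

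For miR-210-3p the averaged TRAMP difference at 10 weeks was smaller than for the miR-126a products. The test of its ratio to miR-126a-3p, given below, did not pass. At 10 weeks it stood at 289.4, 264.9 and 133.7 RPM in WT and at 328.3, 214.7 and 181.1 in WT-TRAMP mice, and these ranges overlap. KO mice had 242.4 to 281.3 and KO-TRAMP mice 122.7 to 246.4. A537T mice had 410.4, 280.7 and 222.7 and A537T-TRAMP mice 167.9, 154.3 and 157.1, without overlap.

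Only the A537T difference passed among the lines, with a log2 fold change of -0.88 ± 0.31 (SE, limma adjusted p = 0.029). It was lost without library 4, 5, 6, 34 or 35, with fold changes from -0.92 to -0.64 and limma adjusted p from 0.055 to 0.137, and with no filter (limma adjusted p = 0.071). The average over the lines was -0.50 ± 0.18 (limma adjusted p = 0.017), which is 0.21 below the median miRNA on the log2 scale and 0.12 below it in the edgeR and the DESeq2 fit. miR-210-5p, the far less abundant product of the same hairpin, had -0.20 ± 0.17 in this average and did not pass (limma adjusted p = 0.315). The median miRNA changed by -0.28. In WT the difference was 0.10 and in KO -0.72, and neither passed (limma adjusted p = 0.848 and 0.063).

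At 30 weeks miR-210-3p stood at 254.9 to 384.7 RPM in WT and at 158.0 to 202.9 in WT-TRAMP mice, a log2 fold change of -0.79 that missed the threshold (limma adjusted p = 0.052). It passed in 6 of the 10 alternatives, among them TMM scaling (-0.74), edgeR (-0.74) and DESeq2 (-0.75). In KO it stood at 147.5 to 197.9 and in KO-TRAMP mice at 208.2 to 281.0, a difference of 0.49 (limma adjusted p = 0.223), and in A537T at 171.6 to 370.1 and in A537T-TRAMP mice at 176.1 to 327.2, a difference of -0.03. The sign was not the same in all lines at 30 weeks, and the average was -0.11 ± 0.18 (limma adjusted p = 0.629). Against the TRAMP difference of WT, that of KO was higher by 1.29 ± 0.44 (limma adjusted p = 0.063). That of A537T was higher by 0.76 ± 0.44 (limma adjusted p = 0.818), and neither passed. The TRAMP difference of KO was 1.21 ± 0.44 higher at 30 than at 10 weeks (limma adjusted p = 0.036). That call was lost without 9 of the 12 libraries in turn, libraries 7, 9, 17, 18, 23, 24, 31, 32 and 33, with values from 1.03 to 1.26, with no filter (limma adjusted p = 0.083), and under TMM scaling (0.70), edgeR (0.67) and DESeq2 (0.52). The median miRNA had a difference of 0.62 in that contrast.

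No difference between a mutant line and its control passed for any of the 3 miRNAs. None of the 24 tests passed in limma, in edgeR or in DESeq2, and 1 had an unadjusted p under 0.05 in limma. That was miR-210-3p in KO against WT mice at 30 weeks, which was lower by 0.84 ± 0.31 on the log2 scale (limma adjusted p = 0.125) with no overlap between 147.5 to 197.9 and 254.9 to 384.7 RPM. The contrasts with the smallest p were, for miR-126a-3p, A537T-TRAMP against WT-TRAMP at 10 weeks (0.43 ± 0.28, limma adjusted p = 0.748) and, for miR-126a-5p, A537T-TRAMP against WT-TRAMP at 30 weeks (0.60 ± 0.43, limma adjusted p = 0.723). Among all miRNAs, KO against WT called 3.89% at 10 and 0.584% at 30 weeks, A537T against WT 0.195% and 0%, KO-TRAMP against WT-TRAMP 0% and 6.23%, and A537T-TRAMP against WT-TRAMP 0% at both ages.

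Averaged over both ages and backgrounds, miR-126a-3p differed by 0.07 ± 0.14 in KO and by 0.10 ± 0.14 in A537T against WT, miR-126a-5p by 0.21 ± 0.21 and 0.33 ± 0.21, and miR-210-3p by -0.18 ± 0.15 and -0.02 ± 0.15. None of these passed (limma adjusted p from 0.535 to 0.965), and 0% of all miRNAs passed in either average in limma and in edgeR, while DESeq2 called 21 of 494 for KO and 1 of 514 for A537T. The effect of a mutant line with TRAMP minus that without it, and at 30 minus at 10 weeks, passed in none of 24 tests. In these tests 0.389% of all miRNAs passed for KO with and without TRAMP at 10 weeks, 7.98% for KO at 30 weeks, 0.195% for KO without TRAMP and 0% for KO with TRAMP between the ages, 0.195% for A537T with TRAMP between the ages, and 0% in the remaining A537T tests. The lowest adjusted p was that of miR-210-3p for KO at 30 weeks (1.29 ± 0.44, limma adjusted p = 0.063).

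Ratios within a library do not depend on how the library is scaled. For every 100 reads of miR-126a-3p there were 1.66 to 4.92 reads of miR-126a-5p. At 10 weeks, when both products were lower with TRAMP, the mean of this ratio was 2.83 reads per 100 with TRAMP and 2.90 without, a log2 difference of -0.02 (exact two-sided permutation p = 0.895, 9 against 9 libraries). The log2 differences of the other 5 averaged comparisons lay between -0.14 and 0.22 (exact permutation p from 0.128 to 0.646).

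For every 100 reads of miR-126a-3p there were 0.963 to 6.15 reads of miR-210-3p. At 10 weeks the mean was 3.01 with TRAMP and 1.86 without, a log2 difference of 0.61 that did not pass (exact permutation p = 0.064, adjusted over 12 ratio tests 0.578). The difference was positive in 3 of 3 lines, from 0.06 to 1.60, and largest in WT, where WT-TRAMP libraries had 3.42 to 6.15 and WT libraries 0.963 to 1.68. None of the 12 ratio tests passed. The smallest p that the relabellings allow is 2.5e-04 for TRAMP and age and 1.25e-05 for the mutant lines.

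**Figure D3:**
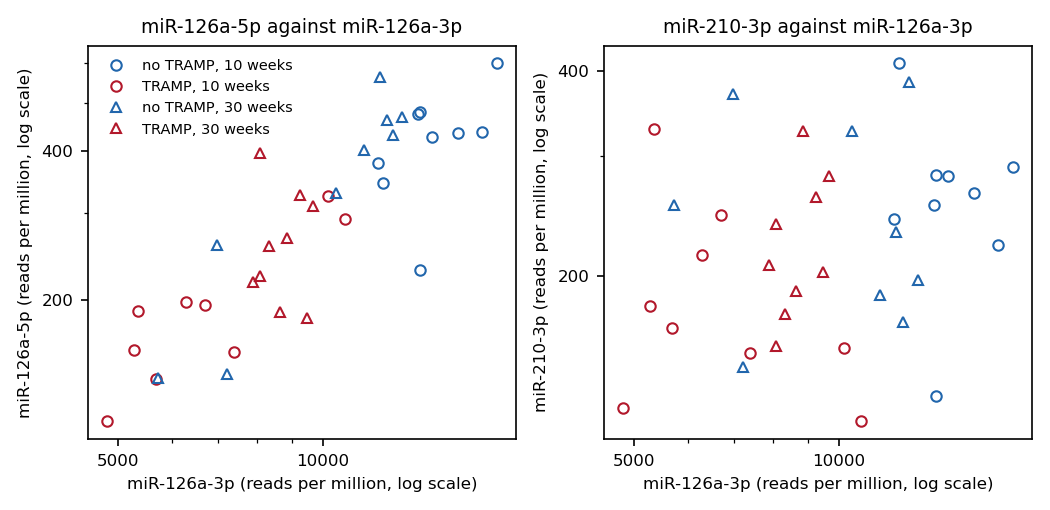
miR-126a-5p (left) and miR-210-3p (right) against miR-126a-3p, in RPM on log axes, for the 36 libraries; blue marks no TRAMP, red TRAMP, circles 10 weeks and triangles 30 weeks. The miR-126a products rise together (r = 0.87), and miR-210-3p spreads widely at every level of miR-126a-3p (r = 0.23).

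Over the 36 libraries miR-126a-5p had a Pearson r of 0.87 with miR-126a-3p on the log2 scale, and of 0.89 once the group means were taken out. miR-210-3p had 0.23 and 0.02. These are descriptions, since the libraries share groups and each total. Among 298 miRNAs with a mean of at least 10 RPM, those most like miR-126a-3p other than its partner were miR-322-3p (r = 0.86), miR-351-5p (r = 0.83) and miR-486a-3p (r = 0.82). Those most like miR-126a-5p were the merged entry miR-199ab-3p (r = 0.81), miR-199b-5p (r = 0.78) and miR-125b-2-3p (r = 0.76), and those most like miR-210-3p were miR-1839-5p (r = 0.76), miR-350-3p (r = 0.73) and miR-3068-5p (r = 0.71).

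Markers of some other cell types moved with miR-126a, and those of others moved the other way or in no common direction. The red cell and platelet list holds miR-451a, miR-144-3p, miR-144-5p and the merged entry miR-486ab-5p, and its share does not separate platelets from red cells. Without TRAMP at 10 weeks miR-486ab-5p had a median of 1357 RPM and miR-451a of 300.1. At 10 weeks these 4 miRNAs took 0.106 to 0.193% of the reads without TRAMP and 0.0138 to 0.0617% with it, without overlap. At 30 weeks they took 0.0322 to 0.152% and 0.0168 to 0.0615%, and libraries 19, 23 and 26, which were low in miR-126a-3p, were the lowest 3 of those without TRAMP. Of these 4 miRNAs 3 fell and 1 did not pass with TRAMP at 10 weeks, with a median log2 fold change of -1.39 against -0.28 for all miRNAs, of which 25.5% rose and 39.9% fell.

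The 6 stroma and smooth muscle miRNAs, such as miR-143-3p of smooth muscle, took 7.31 to 40.5% of the reads without TRAMP and 7.69 to 22.99% with it at 10 weeks, and all 6 fell, with a median of -0.71. The 7 skeletal muscle miRNAs tested all fell too, with a median of -3.48, while 6 of the 7 epithelial miRNAs rose and miR-205-5p, which basal cells carry, is the seventh and fell, beside the 25.5% of all miRNAs that rose and the 39.9% that fell. Of the 5 white blood cell miRNAs 2 rose and 3 fell in this contrast, and of the 6 neuroendocrine miRNAs 1 rose and 5 did not pass. In KO libraries without TRAMP at 10 weeks, skeletal muscle miRNAs took 0.736 to 6.51% of the reads. Without library 32, the one at 6.51%, the miR-126a-3p difference in KO was -0.87 (limma adjusted p = 0.036). With the total taken without the skeletal muscle miRNAs the average difference was -1.27. The part of the skeletal muscle, the stroma, and the red cell and platelet lists in the miR-126a differences was not tested. In whole lobes, fewer cells of a type and less of the RNA per cell cannot be told apart.

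**Figure D4:**
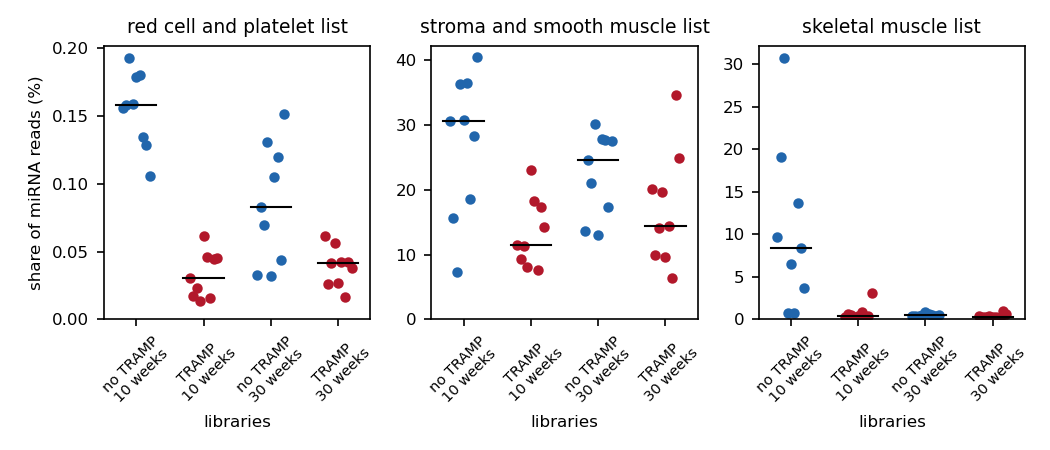
Share of all miRNA reads (%, linear axes from 0) taken by the red cell and platelet, the stroma and smooth muscle, and the skeletal muscle lists in each library (points) with the median of 9 libraries (line), by TRAMP and age. The red cell and platelet share at 10 weeks is 0.106 to 0.193% without TRAMP and 0.0138 to 0.0617% with it.

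Over the 36 libraries the log2 share of the red cell and platelet list had r = 0.86 with miR-126a-3p (0.67 within groups), and that of the epithelial list r = -0.78 (-0.65 within groups). The stroma list had r = 0.63 with miR-126a-3p and 0.75 with miR-126a-5p. With miR-126a-3p the white blood cell list had r = -0.30 (0.08 within groups) and the neuroendocrine list -0.002 (0.26 within groups). For miR-210-3p the highest r among the 6 cell type lists was 0.38, for the neuroendocrine list. All these shares have the same library total as the levels.

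Of the 22 other miRNAs tied to vessel growth that were tested, 7 rose, 7 fell and 8 did not pass with TRAMP at 10 weeks, with a median log2 fold change of -0.18 against -0.28 for all miRNAs, of which 25.5% rose and 39.9% fell. At 30 weeks 12 rose and 2 fell, with a median of 0.36 against 0.07 for all miRNAs, of which 28.8% rose and 16.3% fell. Those that rose include miR-17-5p, miR-18a-5p, miR-19a-3p, miR-19b-3p, miR-20a-5p and miR-92a-3p of the miR-17-92 cluster, so the count is not one of separate genes. The 2 that fell were miR-221-3p and miR-222-3p, with log2 fold changes of -1.03 and -1.055. Among all miRNAs called at 30 weeks, whether listed or not, 63.8% were higher here and 52.8% under TMM scaling. The list itself was not counted under TMM scaling. Of the 14 other miRNAs tied to low oxygen, 6 of which are also in the vessel list, 5 rose and 5 fell at 10 weeks, and 5 rose and 1 fell at 30 weeks, with medians of 0.0017 and 0.23. The shares and medians of all miRNAs for these contrasts are those given beside the vessel list. The counts of both lists, at either age, are not read as a result about them. With miR-210-3p the log2 share of the low oxygen list had r = -0.17 over the 36 libraries (-0.06 within groups). With miR-126a-3p that share had r = -0.65 (-0.15 within groups), and the share of the vessel list had 0.41 (0.55 within groups).

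The 3 list miRNAs with the smallest p at 30 weeks all rose with TRAMP in limma. miR-19a-3p, a growth-promoting member of the miR-17-92 cluster, had 27.1 to 40.1 RPM (median 30.2) with TRAMP and 2.99 to 7.88 (median 3.97) without it, a log2 fold change of 2.51 ± 0.14 (limma adjusted p = 1.81e-14). miR-19b-3p of the same cluster had 76.6 to 175.6 against 16.4 to 46.6, a change of 1.89 ± 0.19 (limma adjusted p = 3.87e-09). miR-142a-3p, a miRNA of blood cells, had 219.5 to 496.7 against 25.2 to 73.2, a change of 2.38 ± 0.20 (limma adjusted p = 1.38e-10). In each of them the 9 TRAMP libraries lay above the 9 without TRAMP.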

How the data were processed

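The authors joined read pairs and removed adapters with BBMerge, counted miRNAs with mirDeep2 against GRCm38 and miRBase, summed miRNAs of identical sequence, and deposited 8 tables of normalised counts, a signal in which DESeq2 had scaled the reads of each library by its size factor. Another 8 deposited tables hold the authors' own comparisons and were not used. Each column was divided by the value of 1 read; 100% of 94224 values came out whole within 0.001, and reads of shared controls were identical in both tables for 12 of 12 libraries. Columns matching no group numbered 0. Columns carry a library number only, so each library was grouped by the table that holds it, and no value here checks the genotype. The study describes the libraries of a group as biological replicates from 3 mice.

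Reads scaled to a library total of 1000000 (RPM) were tested as log2(RPM + 1) with limma 3.58.1 in R 4.3.3 (variance trend, 12 group means, 36 libraries, 24 residual degrees of freedom), for 514 miRNAs with a mean of at least 1 RPM and with Benjamini-Hochberg adjustment within each contrast at 0.05. On this scale the change of low miRNAs is understated. Ratios were tested by exact two-sided permutation within strata (Python 3.11.15). Alternatives were pseudocounts of 0.1 and 10, no filter or a filter at 10, TMM scaling, a total without skeletal muscle miRNAs, no variance trend, edgeR 4.0.16 and DESeq2 1.42.0 on the recovered reads, the libraries of a contrast alone, the deposited values within a table, and leaving out each library. On recovered reads edgeR called 344 of 514 miRNAs for TRAMP at 10 weeks and 263 at 30 weeks. The script was tested on simulated data. Named were the 3 miRNAs, their contrasts that passed or had the smallest p against the control, the 3 miRNAs most like each, and the 3 list miRNAs with the smallest p for TRAMP at 30 weeks; contrasts that missed the threshold but are printed beside these were chosen after their values were seen. The miRNAs and lists were chosen with earlier results of these data known.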

Additional observations from a re-analysis of the deposited data

Results flagged for a closer look

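Of the 36 tests of differences between effects 3 passed, each a change of the TRAMP difference between 10 and 30 weeks. For miR-126a-3p the difference on the log2 scale was higher at 30 weeks by 1.43 in WT (limma adjusted p = 0.020) and by 0.93 in the average over lines (limma adjusted p = 0.003), and for miR-210-3p it was higher by 1.21 in KO (limma adjusted p = 0.036). The median of all miRNAs moved by -0.14, 0.29 and 0.62 in these contrasts, and 9.34%, 37.2% and 31.9% of all miRNAs passed. The miR-210-3p call passed in 9 of 22 alternatives, counting those without a library in turn. It was lost under TMM scaling, edgeR and DESeq2. At 10 weeks, mice without TRAMP also had the largest median shares of the red cell and platelet list (0.1585%) and of the skeletal muscle list (8.36%). In KO libraries of that setting the skeletal muscle share was 0.736 to 6.51%, which overlaps the 0.238 to 3.10% of KO-TRAMP libraries at 10 weeks. The part of these lists in the change was not tested. Groups of 3 libraries were not searched for outlying samples.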

How the results depend on the processing

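The averaged TRAMP differences of all 3 miRNAs at 10 weeks kept their direction and passed in each of the 10 alternatives and without any library, from -1.27 to -0.91 for miR-126a-3p, from -1.29 to -0.92 for miR-126a-5p and from -0.65 to -0.33 for miR-210-3p. None of the contrasts that passed changed its direction in these alternatives. Counts of passing tests of TRAMP within a line fell from 6 to 3 with no filter, where 1574 miRNAs were tested. Tests of age within a group pair went from 0 to 1 under TMM scaling, a total without skeletal muscle miRNAs, edgeR or DESeq2, and to 2 with only the libraries of the contrast; the cause was not tested. Leaving out each library gave 4 to 9 passing tests of TRAMP, 0 to 1 of age (1 without library 8, 9, 20 or 26), 4 to 5 averaged effects, 2 to 5 differences between effects, 0 of a mutant line and 0 of a ratio. The count of differences rose from 3 to 5 without library 16 or library 30. Among called miRNAs the share that was higher moved from 73.8 to 48.6% for age with TRAMP under TMM scaling, and from 38.4 to 18.9% for age without TRAMP with a total that left out skeletal muscle miRNAs, or to 57% under DESeq2. The median of all miRNAs for TRAMP at 10 weeks moved from -0.28 to -0.41 with that total. No paired analysis was possible because the columns of the tables carry no replicate number. In library 35, with 655455 reads, miR-210-3p rested on 184 reads and miR-126a-5p on 279, and depth limited the precision there.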
